A study of Homo sapiens with 9 samples.

Results

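The mitochondrial respiratory chain and ATP synthase are built from 5 multi-subunit complexes of the inner mitochondrial membrane, and most of their subunits are encoded in the nucleus. Genes were counted as nuclear-encoded subunits when their symbol matched the family names NDUFA, NDUFB, NDUFC, NDUFS or NDUFV with a number (complex I), SDHA to SDHD (complex II), UQCR (complex III), COX4 to COX8 (complex IV) or ATP5F1, ATP5M and ATP5P (complex V). The rule uses names and no measured value. It found 147 of 41857 gene IDs, of which 82 are annotated as protein coding and 65 as pseudogenes that carry a subunit's name. The coding members are 37 genes of complex I, 4 of complex II, 9 of complex III, 14 of complex IV and 18 of complex V. A filter on low values (at least 10 in at least 3 libraries) was passed by 76 coding members and 3 pseudogenes, so that 79 members were tested.

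Electrons enter the chain from NADH through complex I and from succinate through complex II, pass through complexes III and IV to oxygen, and build up the proton gradient that ATP synthase, complex V, uses to make ATP. Complexes I, III, IV and V combine nuclear subunits with subunits encoded by mitochondrial DNA, whereas complex II is encoded in the nucleus alone. In dividing epithelial cells the chain also reoxidises the NADH made by pathways that feed biosynthesis.

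RNA came from MCF10A, an established non-tumorigenic human mammary epithelial cell line, with 3 libraries each from cells expressing deltaNp63beta, cells expressing deltaNp63alpha and cells carrying the vector only. deltaNp63alpha and deltaNp63beta are isoforms of the transcription factor p63 that lack the amino-terminal activation domain of TAp63 and differ from each other at the carboxyl terminus. All 9 cultures were given 500 ng/mL doxycycline for 24 h and grew in medium with horse serum, EGF, hydrocortisone, cholera toxin and insulin, and all carry the genotype label WT. The labels do not say whether a line is 1 clone or a pool. The values are normalized estimated counts per gene, called normalized counts below, and they summed to between 22483140 and 23213870 per library. TP63 measured 6719, 4183 and 4870.0 in deltaNp63beta cells, 4426, 6983 and 6961 in deltaNp63alpha cells and 316, 332 and 259 in vector cells. KRT5, a basal epithelial keratin, lay between 53800.5 and 149719 in the 9 libraries. Summed over its list, which holds KRT5 and TP63, the epithelial markers came to 302758 to 315380.0 in deltaNp63beta cells, 197119 to 207326 in deltaNp63alpha cells and 112727 to 120723 in vector cells. Not every marker followed that order. EGFR lay at 10199.8 to 11173 in deltaNp63beta cells, 14203 to 15493 in deltaNp63alpha cells and 10272 to 10967 in vector cells. ITGB4 lay at 33291 to 38886 in deltaNp63beta cells, 38169 to 45535 in deltaNp63alpha cells and 21858 to 24843 in vector cells. The fibroblast list came to 512 to 548 in deltaNp63beta cells, 524 to 663 in deltaNp63alpha cells and 1451 to 1497 in vector cells, with COL3A1 at most 3.08. DCN of the fibroblast list measured 139.8 to 197.6 in deltaNp63beta cells, 343 to 359 in deltaNp63alpha cells and 1208 to 1212 in vector cells. COL1A1 ran the other way, at 325 to 358 in deltaNp63beta cells and 218 to 248 in vector cells. In deltaNp63alpha cells COL1A1 lay between 159.9 and 269.5. The leukocyte list came to 1068 to 1181 in deltaNp63beta cells, 1262 to 1611 in deltaNp63alpha cells and 1851 to 2064 in vector cells, with PTPRC at most 4.22 and CD68, which other cells also make, up to 1161. LAPTM5 of that list ran the other way, at 290.0, 293 and 315 in deltaNp63beta cells, 139.6, 201 and 202 in deltaNp63alpha cells and 139, 177 and 146 in vector cells. The endothelial list came to 109 to 125 in deltaNp63beta cells, 166 to 170.2 in deltaNp63alpha cells and 201 to 274 in vector cells, with CDH5 at most 1.84 and KDR up to 149. The part of these lists in the results below was not tested.

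The deltaNp63beta libraries differed among themselves. deltaNp63beta replicate 3 had the lowest value of its group for 62 of the 76 tested coding members (81.6%), compared with 32.6% of all protein coding genes tested. The gap followed transcript length, taken as the median exonic length of a gene's protein coding transcripts. Over all protein coding genes, the median log2 deviation of this library from the mean of its group was -0.17 for the 361 genes under 700 bases and 0.03 for the 3354 genes of 4000 bases or more. Among the 32 coding members under 700 bases it was -0.21, and among the 12 members of 1500 to under 2500 bases it was -0.03. Respiratory chain mRNAs are short, with a median length of 749.5 bases against 2590.0 bases for all protein coding genes tested. The deltaNp63alpha and vector libraries each had median deviations within 0.03 of their group means in every length class of all protein coding genes. The main counts are therefore given with and without deltaNp63beta replicate 3. These deviations are from the mean of a library's own group, so they cannot show which deltaNp63beta libraries are unusual. Protein coding genes under 1000 bases had a median log2 change against vector of 0.07 with all libraries and 0.11 without replicate 3. For genes of 1000 bases or more these medians were -0.008 and -0.011. What sets replicate 3 apart from the other deltaNp63beta libraries was not tested.

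**Figure D1:**
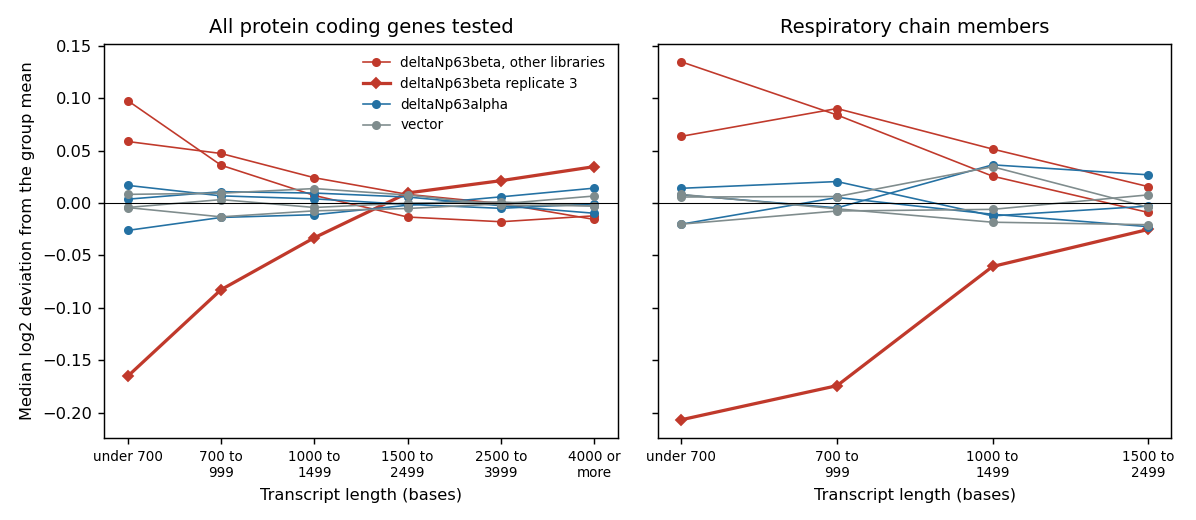
Median log2 deviation of each library from the mean of its own group (vertical axis) by transcript length in bases (horizontal axis), for all protein coding genes tested (left) and for coding respiratory chain members (right). deltaNp63beta replicate 3 (diamonds) lies at -0.17 for all protein coding genes under 700 bases and at -0.21 for members under 700 bases, while the deltaNp63alpha and vector libraries stay near 0.

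Many nuclear-encoded subunits were modestly higher in deltaNp63beta cells than in vector or deltaNp63alpha cells, and few passed the test in deltaNp63alpha against vector cells. In deltaNp63beta against vector cells 38 of the 79 tested members rose and 2 fell, where 21.8% of all 15108 genes tested rose and 19.5% fell. Among the 76 coding members 37 rose (48.7%) and 1 fell, 70 had a log2 change above 0, and the median log2 change was 0.19. In deltaNp63alpha against vector cells 1 member rose (SDHA) and 2 fell (NDUFV3 and ATP5MC2), where 8.13% of all genes tested rose and 6.37% fell. The median log2 change of the coding members there was 0.01, with 39 of 76 above 0. In deltaNp63beta against deltaNp63alpha cells 38 members were higher, all of them coding, and 1 was lower, where 17.4% of all genes tested were higher and 15.5% lower. The median log2 change of the coding members was 0.22 and 75 of 76 lay above 0. The rises that passed were small, between 0.17 and 0.57 on the log2 scale against vector and between 0.18 and 0.48 against deltaNp63alpha. The deltaNp63beta libraries enter both comparisons, and 32 coding members were higher in each. Calls are from limma on log2(value + 1) with Benjamini-Hochberg adjustment over all genes tested, at an adjusted p under 0.05, and adjusted p-values below are of this kind.

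The libraries of deltaNp63beta and vector cells did not overlap for 36 coding members that were higher and 1 that was lower, where 26.2% of all genes tested were higher and 24.4% lower without overlap. Between deltaNp63alpha and vector cells 11 coding members were higher and 10 lower without overlap, beside 16.7% and 16.8% of all genes tested. Between deltaNp63beta and deltaNp63alpha cells 39 were higher and 0 lower, beside 22.9% and 21.9% of all genes tested. Without deltaNp63beta replicate 3, 52 members were higher in deltaNp63beta than in vector cells, where 20.1% of all genes tested were higher. Of these 51 were coding, 36 of them among the 37 above, with NDUFB6 lost and 15 gained. Against deltaNp63alpha 60 members were then higher, all 38 of the full comparison among them, where 15.5% of all genes tested were higher. That count was 23 without deltaNp63beta replicate 2 and 25 without deltaNp63alpha replicate 2, where 13.9% and 14.3% of all genes tested were higher.

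Length and level bear on these shares. Of the coding members of 1000 bases or more, 14 of 23 rose in deltaNp63beta against vector cells (60.9%), with and without replicate 3, where 23.0% of all protein coding genes of that length rose. Of the members under 1000 bases 23 of 53 rose (43.4%), where 25.3% of all such genes rose. Among genes under 1000 bases with a mean value of at least 500, the member share was 46.0% (23 of 50) and the share of all genes 35.5% (226 of 636), and without replicate 3 these were 74.0% and 47.5%. These classes were chosen after the values had been seen. Across the 76 coding members, the Spearman correlation of the log2 change with transcript length was 0.10 in deltaNp63beta against vector cells and -0.09 without replicate 3, given as a description.

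Summed over its coding members, each of the 5 complexes was higher in all 3 deltaNp63beta libraries than in any deltaNp63alpha or vector library. Complex I summed to 67756, 68218 and 59513 in deltaNp63beta cells, 56562, 56051 and 56460.4 in deltaNp63alpha cells and 56709.9, 56668 and 57762 in vector cells. Complex II summed to 12747, 13106 and 12754 in deltaNp63beta cells, 10988, 11379.8 and 11175 in deltaNp63alpha cells and 10438, 10352 and 10340.2 in vector cells. Its deltaNp63alpha libraries lay between the other groups, and it was the one complex whose deltaNp63alpha libraries all exceeded the vector libraries. Complex III summed to 30822, 28434 and 27119 in deltaNp63beta cells, 24667, 23901 and 24046 in deltaNp63alpha cells and 24338, 24952 and 25283 in vector cells. Complex IV summed to 28021, 26467 and 21606 in deltaNp63beta cells, 20435, 20421 and 20893 in deltaNp63alpha cells and 20347, 20428 and 20115 in vector cells. Relative to the mean, the deltaNp63beta libraries spread most for complex IV, with replicate 3 lowest. Complex V summed to 79885, 78724 and 73606 in deltaNp63beta cells, 65692, 63506 and 64557 in deltaNp63alpha cells and 64114, 64318 and 64299 in vector cells. As ratios of deltaNp63beta to vector means, with propagated SD and n = 3 each, complex I stood at 1.14 ± 0.09, complex II at 1.24 ± 0.02, complex III at 1.16 ± 0.08, complex IV at 1.25 ± 0.17 and complex V at 1.20 ± 0.05. The ratio of deltaNp63alpha to vector means was 0.99 ± 0.01 for complex I, 1.08 ± 0.02 for complex II, 0.97 ± 0.02 for complex III, 1.01 ± 0.02 for complex IV and 1.01 ± 0.02 for complex V. With 3 libraries against 3 an exact two-sided permutation test cannot give a p below 0.1, so no test is given for the sums. In bulk RNA, fewer cells of a type and less RNA per cell cannot be told apart.

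**Figure D2:**
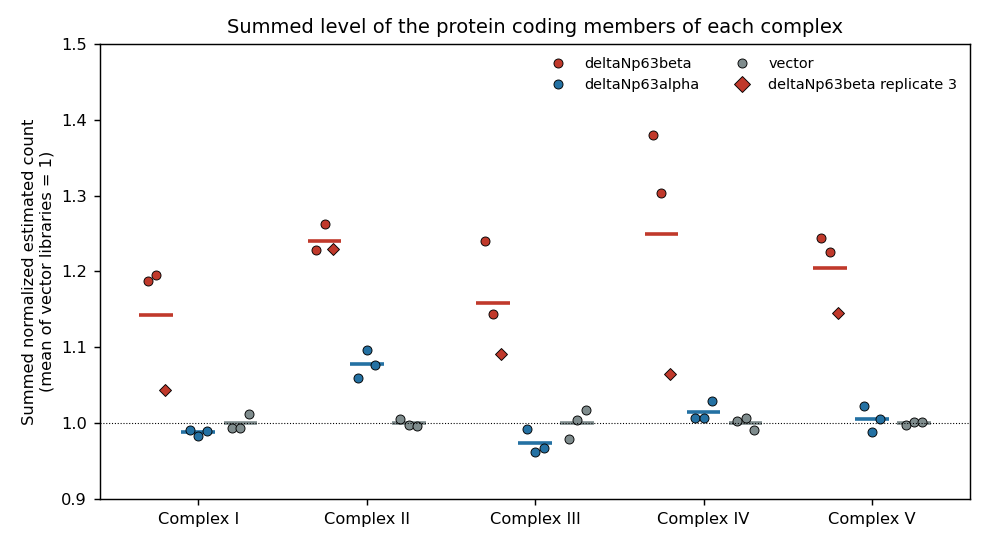
Summed normalized estimated counts of the coding members of each complex in every library, divided by the mean of the 3 vector libraries (vertical axis, starting at 0.9), with deltaNp63beta left, deltaNp63alpha in the middle and vector right. Points are libraries (diamond, deltaNp63beta replicate 3), and the deltaNp63beta means lie between 1.14 and 1.25.

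Promoters of the members were also searched for motifs. RefSeq promoter entries (GRCh38.p14, 250 bases before to 50 after the start) were found for 66 of the 82 coding members and searched on both strands. GCATGCGC, one arm of the palindromic motif of NRF1 (nuclear respiratory factor 1, an activator of respiratory chain genes), was present in 13 of the 66 (19.7%) and in 3.27% of all 27305 promoters in the table. CCGGAAG, the core of the ETS motif that GABP binds, was present in 19 (28.8%) and in 10.7% of all promoters. AAGATGGC, the core of the YY1 motif, was present in 11 (16.7%) and in 3.03% of all promoters. A p63-type motif, CATG and CATG with 6 bases of any kind between them, was present in 0 of the 66 and in 0.392% of all promoters. Of the 29 matched members that rose in deltaNp63beta against vector cells, 8 held the NRF1 arm, 10 the ETS core and 7 the YY1 core. Of the 33 matched members that were tested and did not rise, 5, 9 and 4 held them. A match is a run of letters and not a measured binding site, and these shares were not tested.

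The 150 bases before the RefSeq start are shown for 4 members, 5′ to 3′ on the strand of the gene, because they hold the NRF1 or ETS letters and belong to genes that rose in complexes II, IV and V. Capitals mark the NRF1 and ETS matches on either strand that lie wholly inside a window. The windows are chr10:7788027-7788176 (plus strand) for ATP5F1C, chr11:112086723-112086872 (plus strand) for SDHD, chr1:17054033-17054182 (minus strand) for SDHB and chr2:97645912-97646061 (plus strand) for COX5B, all in GRCh38.p14. GENCODE models of the 4 genes begin further upstream, inside these windows.
ATP5F1C: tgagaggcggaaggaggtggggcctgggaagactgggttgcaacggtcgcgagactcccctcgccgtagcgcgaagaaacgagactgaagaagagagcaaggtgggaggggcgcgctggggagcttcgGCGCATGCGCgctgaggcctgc
SDHD: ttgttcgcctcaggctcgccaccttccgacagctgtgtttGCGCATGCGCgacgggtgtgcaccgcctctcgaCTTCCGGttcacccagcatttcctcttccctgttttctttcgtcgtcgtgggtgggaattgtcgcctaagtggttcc
SDHB: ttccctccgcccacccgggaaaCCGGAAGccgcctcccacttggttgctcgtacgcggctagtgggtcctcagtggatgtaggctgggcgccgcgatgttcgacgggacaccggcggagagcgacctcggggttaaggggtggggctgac
COX5B: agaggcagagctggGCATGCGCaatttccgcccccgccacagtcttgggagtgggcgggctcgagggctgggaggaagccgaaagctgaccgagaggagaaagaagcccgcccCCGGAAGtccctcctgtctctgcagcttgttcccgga
In ATP5F1C and SDHD the first capitals are the whole NRF1 palindrome, which holds GCATGCGC on both strands. In SDHD the second capitals are the ETS core read on the opposite strand. Inside its window COX5B holds 1 NRF1 arm and 1 ETS core, and SDHB an ETS core. Another ETS core of COX5B runs across the start. The SDHB promoter entry also holds an NRF1 arm 200 to 193 bases before the start and a YY1 core after it, both outside the window.

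Complex I has a peripheral arm, which takes electrons from NADH through a flavin and a chain of iron-sulfur clusters, and a membrane arm that pumps protons. Of its 37 coding members 13 rose in deltaNp63beta against vector cells and 1 fell, where 21.8% of all genes tested rose and 19.5% fell. Among all protein coding genes under 1000 bases with a mean value of at least 500, 35.5% rose. The median log2 change of the 37 members was 0.17. Without replicate 3 the number that rose was 19, where 20.1% of all genes tested and 47.5% of that short and abundant class rose. Of the 7 nuclear core subunits, which carry the cofactors or line the quinone site, 5 rose, and of the 30 accessory subunits 8 rose and 1 fell. These role groups were drawn up after the values had been seen. NDUFB5, an accessory subunit of the membrane arm (chr3:179604690-179627647, GRCh38), measured 2445, 2479 and 2280.4 in deltaNp63beta cells, 1764, 1729 and 1722 in deltaNp63alpha cells and 1577, 1654 and 1727 in vector cells. All deltaNp63beta libraries lay above the other 6, and it had the largest rise of complex I against vector, 1.45-fold (log2 change 0.54, SE 0.05, adjusted p = 1.2e-05). NDUFB8, another membrane-arm subunit, measured 2473, 2467 and 2298 in deltaNp63beta cells, 1953, 1962 and 2108 in deltaNp63alpha cells and 1821, 1875 and 1874 in vector cells. Its deltaNp63beta libraries also lay above all others, at 1.30-fold (adjusted p = 0.000141) over vector.

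NDUFV3, an accessory subunit next to the flavin site (chr21:42879644-42913304), was lower with both isoforms. It measured 1295, 1226 and 1287 in deltaNp63beta cells, 1283, 1219.9 and 1256 in deltaNp63alpha cells and 1459, 1567 and 1701 in vector cells. The 6 libraries with an isoform overlapped each other and lay below the 3 vector libraries. NDUFV3 fell by 0.31 on the log2 scale with deltaNp63beta (adjusted p = 0.00238) and by 0.33 with deltaNp63alpha (adjusted p = 0.00516), and the log2 difference between deltaNp63beta and deltaNp63alpha was 0.02 (SE 0.06, adjusted p = 0.851). Both calls held on leaving out any 1 library. NDUFA4, which the naming rule places in complex I, is now regarded as a subunit of complex IV. It measured 2786, 2497 and 2227 in deltaNp63beta cells, 2209, 2094 and 2137 in deltaNp63alpha cells and 2395, 2659 and 2506 in vector cells and passed the test in deltaNp63beta against deltaNp63alpha cells, at 1.16-fold (adjusted p = 0.0453), a call lost on leaving out any library but deltaNp63beta replicate 3. NDUFA3 was the least abundant tested member of complex I, between 18.2 and 43.9.

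Succinate dehydrogenase, complex II, is also an enzyme of the tricarboxylic acid cycle, and all 4 of its genes rose in deltaNp63beta against vector cells, with and without replicate 3, though 3 of them when values were smoothed against transcript length. Over all genes tested 21.8% rose, and 20.1% without replicate 3. SDHA, the flavoprotein that oxidises succinate (chr5:218241-256700), measured 4496, 4624 and 4634 in deltaNp63beta cells, 4195, 4495 and 4201 in deltaNp63alpha cells and 3945, 3639 and 3538 in vector cells. Both isoform groups lay above vector. SDHA rose 1.24-fold (log2 change 0.31, SE 0.05, adjusted p = 0.000465) with deltaNp63beta. It rose 1.16-fold (log2 change 0.21, SE 0.05, adjusted p = 0.014) with deltaNp63alpha, a call lost when deltaNp63alpha replicate 2, vector replicate 2 or vector replicate 3 was left out. SDHB, the iron-sulfur subunit, measured 2427, 2300.2 and 2203 in deltaNp63beta cells, 1922, 2022 and 1950.2 in deltaNp63alpha cells and 1859, 1917 and 1984 in vector cells. The deltaNp63beta libraries lay above the rest, at 1.20-fold (adjusted p = 0.00176) over vector. SDHC, a membrane anchor that helps to bind heme and ubiquinone, measured 3029, 3362 and 3147 in deltaNp63beta cells, 2869, 2855 and 3033 in deltaNp63alpha cells and 2710.3, 2764 and 2850.4 in vector cells. Its deltaNp63beta and deltaNp63alpha libraries overlapped, and the rise against vector was 1.14-fold (adjusted p = 0.00903), a call lost with that smoothing. SDHD, the other membrane anchor, measured 2796, 2820.3 and 2769 in deltaNp63beta cells, 2002, 2008 and 1992 in deltaNp63alpha cells and 1925, 2032 and 1967 in vector cells. The 3 deltaNp63beta libraries stood together above the 6 others, which overlapped, at 1.42-fold (log2 change 0.50, SE 0.04, adjusted p = 3.66e-06) over vector and 1.40-fold (adjusted p = 8.86e-06) over deltaNp63alpha. These are the smallest adjusted p-values of any member in those comparisons. SDHB and SDHD were the complex II genes that were also higher in deltaNp63beta than in deltaNp63alpha cells.

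**Figure D3:**
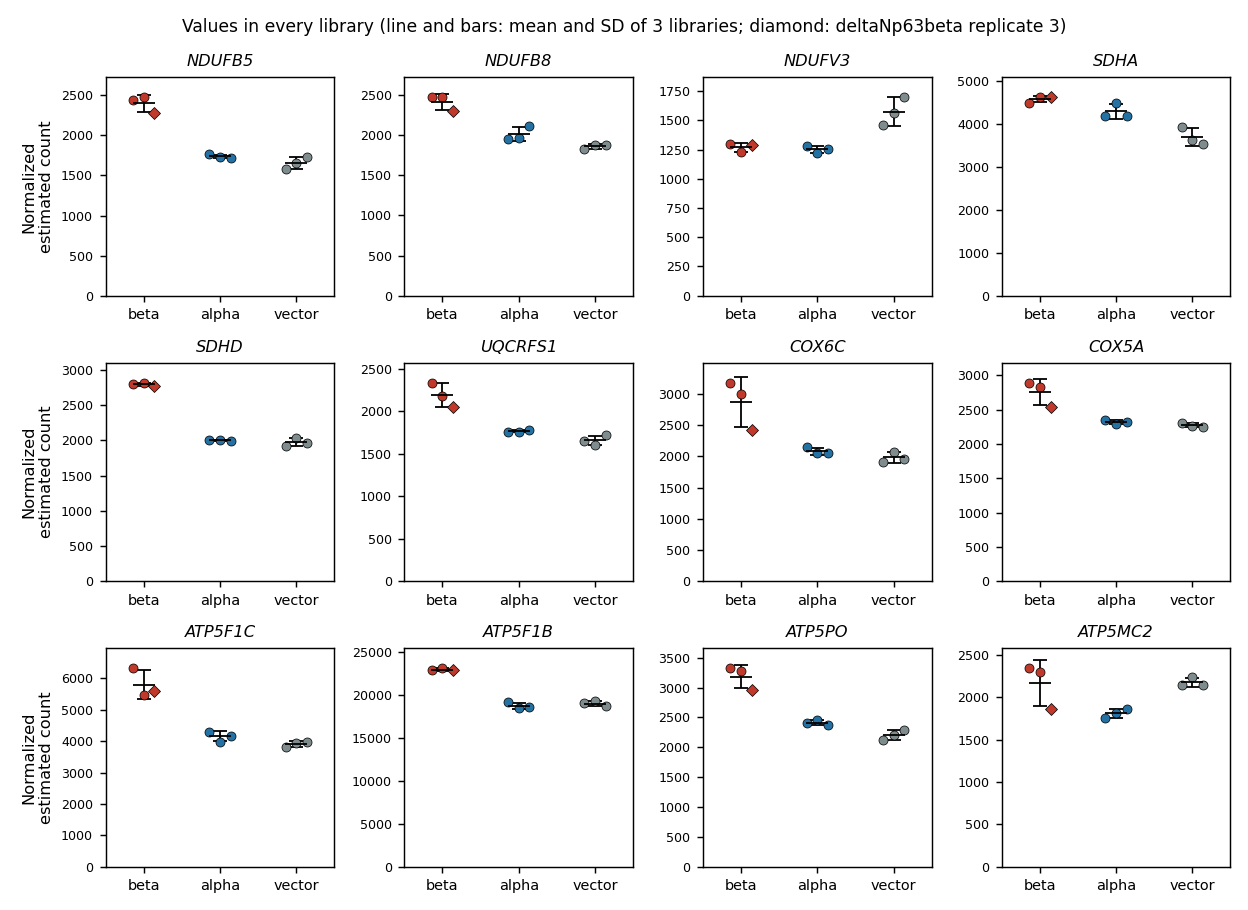
Normalized estimated counts (vertical axes, from 0) of 12 members in every library, with deltaNp63beta left, deltaNp63alpha in the middle and vector right, and group means with SD. The 3 deltaNp63beta libraries of SDHD stand above its 6 other libraries, while NDUFV3 is lower with both isoforms than in vector.

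Complex III passes electrons from ubiquinol to cytochrome c. Of its 8 tested coding members 4 rose in deltaNp63beta against vector cells, with a median log2 change of 0.17, where 21.8% of all genes tested rose. Without replicate 3 the number was 5, where 20.1% of all genes tested rose. Among protein coding genes under 1000 bases with a mean value of at least 500, 35.5% rose, and 47.5% without replicate 3. The 4 include both large core proteins and the Rieske iron-sulfur protein. UQCRFS1, the Rieske protein, measured 2339.8, 2184 and 2054 in deltaNp63beta cells, 1759, 1759.6 and 1779 in deltaNp63alpha cells and 1651, 1609 and 1719 in vector cells. Its deltaNp63beta libraries lay above all others, at 1.32-fold (log2 change 0.40, SE 0.06, adjusted p = 0.000172) over vector. UQCRC1, a core protein, measured 7122, 7018 and 7602 in deltaNp63beta cells, 6487, 6322 and 6347 in deltaNp63alpha cells and 6071, 6189 and 6096 in vector cells. UQCRC2, the other core protein, measured 5574, 5153 and 5729 in deltaNp63beta cells, 4452, 4085 and 3859 in deltaNp63alpha cells and 4073, 4305 and 4369 in vector cells. Both were highest in deltaNp63beta replicate 3, and they rose 1.18-fold (adjusted p = 0.00048) and 1.29-fold (adjusted p = 0.000492) against vector. UQCRH, the hinge protein, was the one of 5 small subunits that rose (adjusted p = 0.0492), a call lost on leaving out any library but deltaNp63beta replicate 3. UQCRQ, a small subunit near the quinone site, measured 2919, 2582 and 2212 in deltaNp63beta cells, 2276, 2217 and 2238 in deltaNp63alpha cells and 2439, 2643 and 2559 in vector cells. Its deltaNp63beta values spread over the range of both other groups, and the adjusted p was 0.968 for deltaNp63beta and 0.181 for deltaNp63alpha against vector. UQCRHL, an intronless copy of UQCRH, lay between 1.02 and 6.13 and was not tested.

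Complex IV, cytochrome c oxidase, reduces oxygen to water. Its catalytic core is mitochondrially encoded, and the nuclear subunits surround it. Of the 9 tested nuclear members 6 rose in deltaNp63beta against vector cells and 6 were higher than in deltaNp63alpha cells, beside 21.8% and 17.4% of all genes tested. The median log2 changes were 0.28 and 0.25. Without replicate 3 all 9 passed in both, beside 20.1% and 15.5% of all genes tested. Among protein coding genes under 1000 bases with a mean value of at least 500, the shares were 35.5% and 30.2%. Without replicate 3 they were 47.5% and 41.4%. COX6C measured 3180.3, 2998 and 2418 in deltaNp63beta cells, 2148, 2046 and 2052 in deltaNp63alpha cells and 1913, 2074 and 1962 in vector cells. Every deltaNp63beta library lay above the others, replicate 3 well below its partners, and the rise against vector was 1.44-fold (log2 change 0.52, SE 0.09, adjusted p = 0.000555). COX5A, a subunit on the matrix side, measured 2896, 2832 and 2545 in deltaNp63beta cells, 2354, 2289 and 2319.7 in deltaNp63alpha cells and 2303, 2264 and 2252 in vector cells. The deltaNp63beta libraries again stood above the rest, at 1.21-fold (adjusted p = 0.00152) over vector. COX7C measured 4871, 4565 and 3643 in deltaNp63beta cells, 3236, 3195 and 3349 in deltaNp63alpha cells and 3291, 3274 and 3235 in vector cells. It rose 1.32-fold (adjusted p = 0.00274) against vector, and COX5B, a zinc-binding subunit, rose 1.29-fold (adjusted p = 0.00523).

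Several complex IV subunits have paralogs made in different tissues. COX6A1, the widely made form, measured 4365, 4311 and 3454 in deltaNp63beta cells, 3279.8, 3526 and 3493 in deltaNp63alpha cells and 3212, 3056 and 3306 in vector cells. It rose 1.26-fold (adjusted p = 0.00602) against vector, and its heart and muscle form COX6A2 was listed at 0 in all 9 libraries. COX7A2, the widely made form, measured 3531, 2916 and 2408 in deltaNp63beta cells, 2515, 2484 and 2533 in deltaNp63alpha cells and 2494, 2608 and 2499.7 in vector cells. Its deltaNp63beta replicate 3 was the lowest of the 9 libraries and replicate 1 the highest (adjusted p = 0.145 against vector), and the muscle form COX7A1 lay between 0 and 3.87. COX6B1 measured 2787, 2784 and 2174 in deltaNp63beta cells, 2193, 2384 and 2365 in deltaNp63alpha cells and 2305, 2239.6 and 2202 in vector cells. Replicate 3 of deltaNp63beta was again lowest (adjusted p = 0.101), and the testis form COX6B2 lay between 0 and 6.92. COX7B measured 1415, 1286 and 907 in deltaNp63beta cells, 969, 813 and 961 in deltaNp63alpha cells and 991, 1077 and 961 in vector cells. The groups overlapped (adjusted p = 0.221), and COX7B2 was listed at 0. COX8A measured 2403, 2439 and 2119.9 in deltaNp63beta cells, 2016, 1933 and 2006 in deltaNp63alpha cells and 2092, 2023 and 1987 in vector cells. It rose 1.14-fold (adjusted p = 0.0244) against vector, a call lost on leaving out deltaNp63beta replicate 1 or 2 or vector replicate 2 or 3, and COX8C was listed at 0. In each pair the widely made form was the abundant one in all 3 groups.

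Complex V, ATP synthase, has an F1 head with a central stalk in the matrix, a ring of c-subunits in the membrane, a peripheral stalk and small membrane subunits. Of its 18 tested coding members 10 rose in deltaNp63beta against vector cells and 12 were higher than in deltaNp63alpha cells, beside 21.8% and 17.4% of all genes tested. The median log2 changes were 0.22 and 0.23. Without replicate 3 the numbers that passed were 14 and 16, beside 20.1% and 15.5% of all genes tested. Among protein coding genes under 1000 bases with a mean value of at least 500, the shares were 35.5% and 30.2%. Without replicate 3 they were 47.5% and 41.4%. In the head and central stalk 4 of 5 rose against vector, in the peripheral stalk 3 of 4, among the c-subunit genes 1 of 3 and among the small membrane subunits 2 of 5, while ATP5MGL, a gene like ATP5MG that measured at most 18.3 in any library, was put in no role group and passed no test. ATP5F1C, the gamma subunit of the central stalk, measured 6326, 5467 and 5609 in deltaNp63beta cells, 4307, 3987 and 4178 in deltaNp63alpha cells and 3806, 3934 and 3985 in vector cells. It had the largest rise of any member against vector, 1.48-fold (log2 change 0.57, SE 0.06, adjusted p = 1.29e-05). ATP5PO, the stalk protein that confers oligomycin sensitivity, measured 3326, 3274 and 2958 in deltaNp63beta cells, 2401, 2453 and 2372 in deltaNp63alpha cells and 2123, 2208 and 2291 in vector cells. All deltaNp63beta libraries lay above the others, at 1.44-fold (log2 change 0.53, SE 0.05, adjusted p = 1.64e-05) over vector. ATP5F1B, the catalytic beta subunit (chr12:56638175-56646068), measured 22822, 23093 and 22864 in deltaNp63beta cells, 19104, 18483 and 18557 in deltaNp63alpha cells and 19040.3, 19219.6 and 18666 in vector cells. Its deltaNp63beta libraries differed from each other by less than the gap to the other groups, and the rise was 1.21-fold (log2 change 0.27, SE 0.03, adjusted p = 2.9e-05). Per kilobase of transcript ATP5F1B had the highest level of the coding members in vector cells, with means of 12467 in deltaNp63beta, 10177 in deltaNp63alpha and 10318 in vector cells.

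The c-subunit is encoded by 3 genes that yield the same mature protein, and their groups were ordered differently. ATP5MC1 measured 1754, 1835 and 1507 in deltaNp63beta cells, 1278, 1390.2 and 1311 in deltaNp63alpha cells and 1607, 1541 and 1458 in vector cells. ATP5MC2 measured 2346, 2306 and 1863 in deltaNp63beta cells, 1757, 1816 and 1863 in deltaNp63alpha cells and 2145, 2244 and 2143 in vector cells. ATP5MC3 measured 6692, 6721 and 5596 in deltaNp63beta cells, 5513, 5522 and 5443 in deltaNp63alpha cells and 5002, 4969 and 5102 in vector cells. ATP5MC1 and ATP5MC2 had their lowest group mean with deltaNp63alpha, and ATP5MC3 had it in vector cells. All 3 were higher in deltaNp63beta than in deltaNp63alpha cells, with log2 changes of 0.35 for ATP5MC1 (adjusted p = 0.00424), 0.25 for ATP5MC2 (adjusted p = 0.0294) and 0.20 for ATP5MC3 (adjusted p = 0.0288). The calls for ATP5MC2 and ATP5MC3 were each lost on leaving out any of 5 of the 6 libraries compared, the exception being deltaNp63beta replicate 3. Against vector, ATP5MC3 rose 1.26-fold (adjusted p = 0.00138) with deltaNp63beta, while the adjusted p was 0.161 for ATP5MC1 and 0.925 for ATP5MC2. With deltaNp63alpha ATP5MC2 fell by 0.26 on the log2 scale against vector (adjusted p = 0.0455), a call lost on leaving out any 1 of the 6 libraries compared. Per kilobase of transcript ATP5MC3 had the highest level of the 3, with means of 7525 in deltaNp63beta, 6523 in deltaNp63alpha and 5967 in vector cells.

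**Figure D4:**
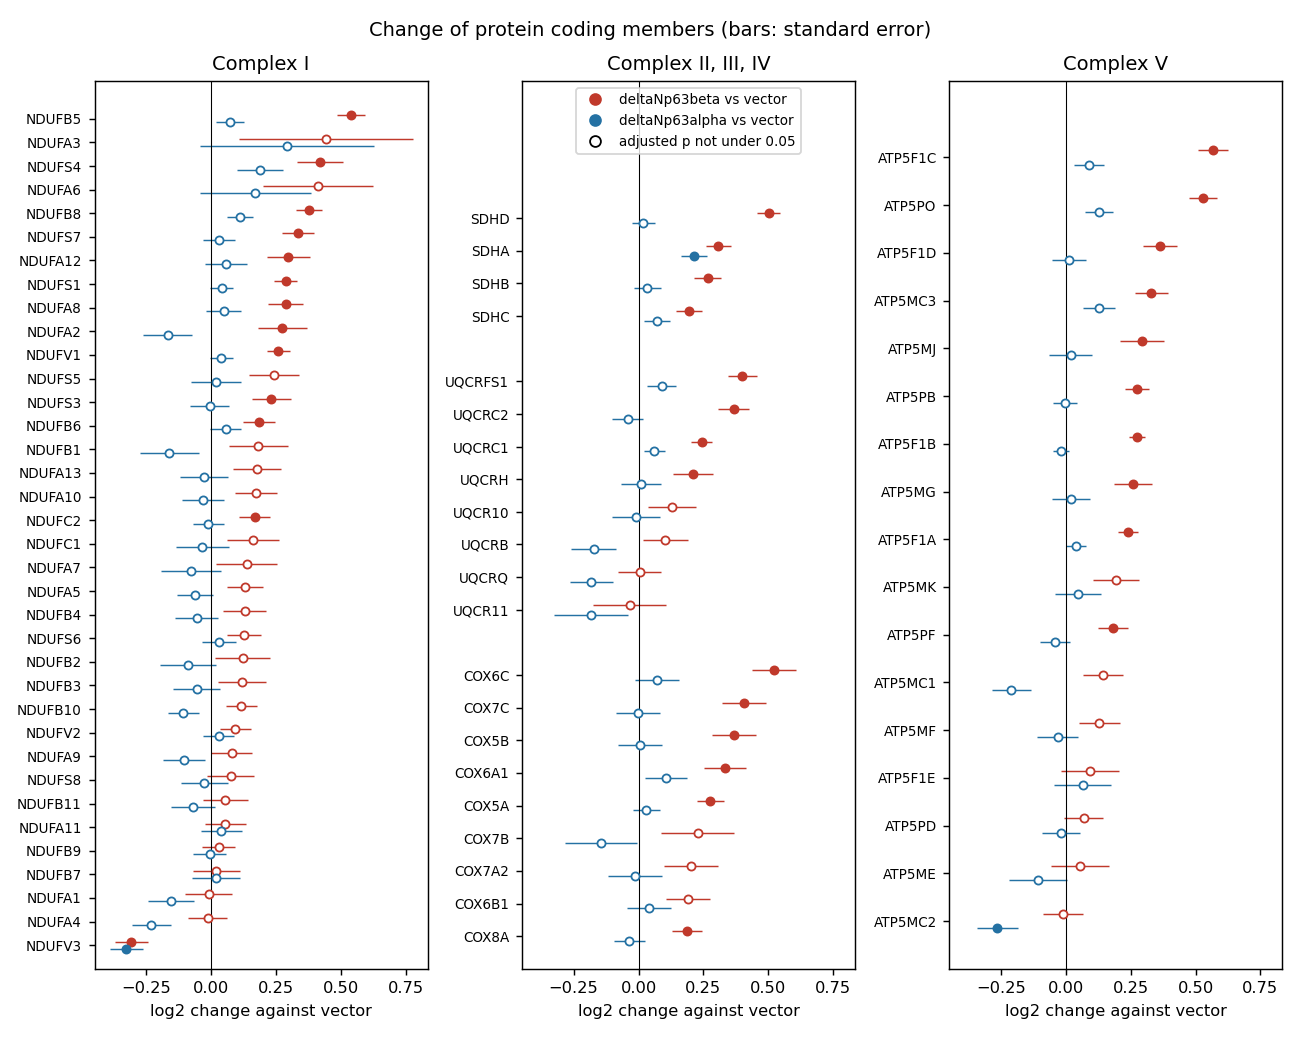
log2 change against vector (horizontal axis) of coding members, by complex, for deltaNp63beta (red) and deltaNp63alpha (blue), with bars of 1 standard error and filled points for an adjusted p under 0.05. ATP5MGL, at most 18.3 in any library, is not drawn. Most red points lie right of 0, blue points lie around 0, and NDUFV3 has filled points left of 0 for both isoforms.

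Of the 13 subunits encoded by mitochondrial DNA, 1 rose and 4 fell in deltaNp63beta against vector cells, where 21.8% of all genes tested rose and 19.5% fell. Their median log2 change was -0.04, with 5 of 13 above 0. Without replicate 3 the counts were 2 and 4, where 20.1% of all genes tested rose. The share of all genes that fell in that fit is not given here or below. The median then turned to 0.005, with 7 of 13 above 0. The difference from the nuclear members was not tested. MT-CO1, the catalytic subunit of complex IV, measured 353191, 360398 and 346404 in deltaNp63beta cells, 305812, 311644 and 319540.0 in deltaNp63alpha cells and 280110.0, 312546 and 270470.0 in vector cells. It rose by 0.30 on the log2 scale against vector (adjusted p = 0.000322). MT-ND1, a membrane-arm subunit of complex I, measured 35248, 34463 and 32087 in deltaNp63beta cells, 36927, 42747 and 42558 in deltaNp63alpha cells and 40499, 45907 and 39760.4 in vector cells. It fell by 0.31 (adjusted p = 0.00352), and the others that fell, MT-ND2, MT-ND5 and MT-ND6, are also complex I subunits. With deltaNp63alpha the 13 log2 changes against vector ran from -0.12 to 0.20.

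A further list holds nuclear subunits, carriers and paralogs outside the naming rule, and associated proteins such as HIGD1A and HIGD2A. In deltaNp63beta against vector cells 6 of its 9 tested genes were higher, beside 21.8% of all genes tested. Without replicate 3 the number was 7, beside 20.1% of all genes tested. CYC1, the cytochrome c1 of complex III, measured 7836, 8297 and 7690.2 in deltaNp63beta cells, 5659, 5941 and 5793 in deltaNp63alpha cells and 6114, 5719 and 6069 in vector cells. It rose by 0.41 on the log2 scale (adjusted p = 2.05e-05), and so did NDUFAB1 (0.39), HIGD1A (0.40) and HIGD2A (0.40). Among assembly factors, which build the complexes without staying in them, 7 of 19 for complex I rose and 2 fell, and 9 of 39 for complexes II to V rose (23.1%) and 3 fell, beside the 21.8% and 19.5% of all genes tested. Without replicate 3 these counts were 6 and 1 for complex I and 11 and 3 for complexes II to V. COX10, which acts in the pathway that makes the heme of complex IV, rose by 0.60 (adjusted p = 7.94e-05). COX20, a chaperone of the MT-CO2 protein, fell by 0.50 (adjusted p = 0.00018). Tricarboxylic acid cycle enzymes outside complex II had 9 of 14 higher and 1 lower, beside the same 21.8% and 19.5%, and 7 and 0 without replicate 3. CS, citrate synthase, measured 5294, 5334 and 5399 in deltaNp63beta cells, 4562, 4687 and 4528 in deltaNp63alpha cells and 4602, 4289 and 4662 in vector cells. It rose by 0.24 on the log2 scale (adjusted p = 0.000739).

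The ribosomal protein families also had many members higher. Mitochondrial ribosomal proteins had 40 of 76 higher and 3 lower in deltaNp63beta against vector cells, with a median log2 change of 0.19. Of all genes tested 21.8% were higher and 19.5% lower. Cytosolic ribosomal proteins, short and abundant mRNAs outside mitochondria, had 42 of 83 higher and 1 lower (50.6% higher, median 0.17). The coding respiratory chain members had 48.7% higher. Without replicate 3 these shares moved apart, to 67.1% of coding respiratory chain members (51 of 76), 60.5% of mitochondrial ribosomal proteins (46 of 76) and 85.5% of cytosolic ribosomal proteins (71 of 83). All genes tested then had 20.1% higher. Protein coding genes under 1000 bases with a mean value of at least 500 had 35.5% higher with all libraries and 47.5% without replicate 3. The differences between these lists were not tested.

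**Figure D5:**
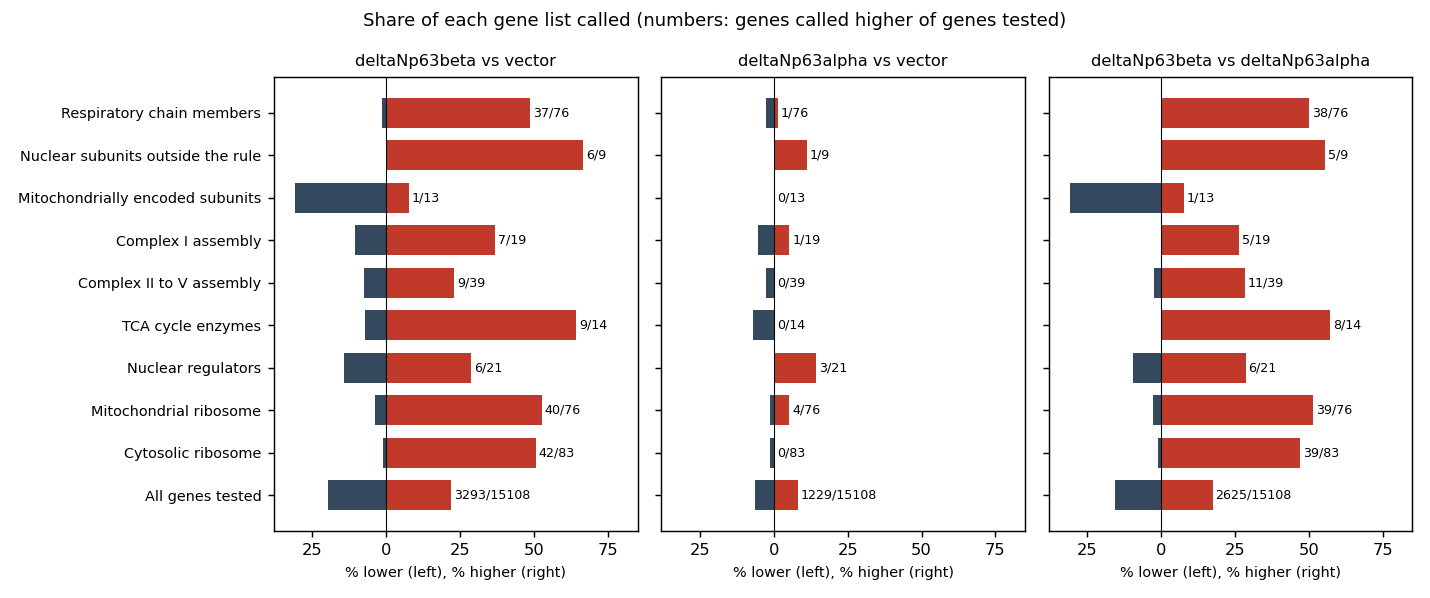
Percent of the tested genes of each list called lower (left of 0) and higher (right of 0) in the 3 comparisons, with the number called higher over the number tested. In deltaNp63beta against vector cells coding respiratory chain members (37 of 76), mitochondrial ribosomal proteins (40 of 76) and cytosolic ribosomal proteins (42 of 83) are shown with all libraries, and mitochondrially encoded subunits have 1 of 13.

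Among 21 nuclear regulators of mitochondrial genes 6 rose (28.6%) and 3 fell in deltaNp63beta against vector cells, near the 21.8% and 19.5% of all genes tested. Without replicate 3, 7 rose and 3 fell, where 20.1% of all genes tested rose. ESRRA, a nuclear receptor that activates respiratory chain genes, measured 2986, 2961 and 2526 in deltaNp63beta cells, 1792, 2178 and 1868 in deltaNp63alpha cells and 1404, 1510.5 and 1602 in vector cells. The 3 groups did not overlap, with log2 changes against vector of 0.90 for deltaNp63beta (adjusted p = 1.04e-05) and 0.37 for deltaNp63alpha (adjusted p = 0.0163). MYC, whose product also activates mitochondrial and ribosomal genes, measured 9005, 9797 and 9874 in deltaNp63beta cells, 7810.1, 7281 and 7265 in deltaNp63alpha cells and 6786, 6442 and 6449 in vector cells. It rose with both isoforms, by 0.54 (adjusted p = 4.75e-06) and 0.18 (adjusted p = 0.0246). Of the factors whose motifs were searched, NRF1 had a log2 change of -0.14 (adjusted p = 0.266) and GABPA of -0.05 (adjusted p = 0.545) in deltaNp63beta against vector cells, and YY1 fell by 0.21 (adjusted p = 0.031). These 3 were named after their values were seen.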

How the data were processed

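The deposited signal values are normalized estimated counts per gene. The submitters' processing notes name kallisto 0.46.2, DESeq2 and the GRCh38 build, without their order or roles, so the exact normalization by the authors is not given in the sources used here. Median-of-ratios factors computed from the deposited values were the same, 1.00437, in all 9 libraries, so scaling by them changed no ratio between libraries. Whole reads could not be recovered from the values, of which 59.9% to 63.5% per library lay within 0.1 of a whole step (values up to 20 steps), and the read depth is therefore unknown.

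Values were tested as log2(value + 1) with limma 3.58.1 (R 4.3.3, mean-variance trend, robust moderation) on all 9 libraries, without a block, over the 15108 genes with at least 10 in at least 3 libraries, with Benjamini-Hochberg adjustment. Fold changes are on the log2(value + 1) scale, which understates changes of low genes. The script was tested on simulated data. Of the 82 coding members 48 have pseudogenes by symbol and 32 overlap another gene on the same strand, so their values may share reads with near-identical copies. Positions, biotypes and lengths are from GENCODE 29. Values in all libraries are given for the 3 members of each complex with the smallest adjusted p in deltaNp63beta against vector, the 1 with the smallest in deltaNp63alpha against vector, the SDH genes and the paralogs, and of each other list up to 4 genes may be named by adjusted p. NDUFA4, NDUFA3 and UQCRH were added after their values were seen. A result for 1 member that this rule names is not reported here. No pairing by replicate number was detected. Residuals correlated between -0.12 and 0.08 for same-numbered libraries and between -0.14 and 0.12 for libraries with different numbers. This cannot show whether cultures were handled in numbered sets. The submitters call the replicates biological, and where cultures were not separate the p-values cover technical spread alone. The members and lists were chosen with earlier results of these data known, and role groups, length and level classes and length smoothing after the values had been seen.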

Additional observations from a re-analysis of the deposited data

How the results depend on the processing

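No member called in a comparison changed direction under an alternative. Values near 0 did change sign: without deltaNp63beta replicate 3 the median of the mitochondrially encoded subunits in deltaNp63beta against vector turned to 0.005 and the correlation with length to -0.09, and with equal totals the complex V ratio of deltaNp63alpha to vector, 1.01, was 0.993. Members higher in deltaNp63beta against vector (38) numbered 30 to 52 on leaving out 1 library, and members lower (2) numbered 1 to 3. For deltaNp63alpha against vector, higher (1) ranged from 0 to 2 and lower (2) from 1 to 4. For deltaNp63beta against deltaNp63alpha, higher (38) ranged from 23 without deltaNp63beta replicate 2 to 60 without replicate 3, and lower (1) from 0 to 2. Against a 1.5-fold change every one of these 6 counts was 0. In deltaNp63beta against vector 1 member was lower with quantile normalization, with a minimum of 50, with only the groups compared and with pseudogenes left out. In deltaNp63alpha against vector 2 were higher with only the groups compared and with length smoothing and 0 without the trend, while 6 were lower with only the groups compared and 1 without a filter, without the trend and with the replicate block. In deltaNp63beta against deltaNp63alpha 0 were lower with a minimum of 50 and with pseudogenes left out, and 2 with length smoothing. With equal totals the complex I ratio of deltaNp63alpha to vector was 0.975 and the complex II ratio of deltaNp63beta to vector was 1.21. The cause of these shifts was not tested, other than that fewer libraries or members enter some of them. Most counts in this section stand without the share of all genes called under the same alternative. They describe how far a count moves and are not a result about the members. With the replicate block 34 members were higher and 2 lower in deltaNp63beta against vector and 33 and 1 against deltaNp63alpha. The replicate numbers showed no detectable pairing, and 2 of 9 libraries correlated best with their own number. Of the members called, 29 of 40, 1 of 3 and 23 of 39 kept their call on leaving out any 1 library, in the order deltaNp63beta against vector, deltaNp63alpha against vector and deltaNp63beta against deltaNp63alpha.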

Other observations

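Pseudogenes that carry a subunit's name did not move as 1 group. UQCRFS1P1, a processed copy of UQCRFS1, measured 244, 232 and 256 in deltaNp63beta cells, 209, 190.4 and 211 in deltaNp63alpha cells and 179, 169 and 181 in vector cells, and rose by 0.47 on the log2 scale in deltaNp63beta against vector cells (adjusted p = 0.00475), as UQCRFS1 did. ATP5F1BP1 measured 17.7, 7.17 and 6.86 in deltaNp63beta cells, 29.7, 24.6 and 28.6 in deltaNp63alpha cells and 20.2, 24.4 and 17.6 in vector cells. It was lower in deltaNp63beta than in deltaNp63alpha cells (log2 change -1.43, adjusted p = 0.018), a call lost on leaving out any of 4 libraries, while ATP5F1B was higher. ATP5PBP7 measured 11.8, 2.06 and 1.96 in deltaNp63beta cells, 16.8, 10.5 and 16.4 in deltaNp63alpha cells and 18.3, 14.4 and 14.5 in vector cells (log2 change -1.77 against vector, adjusted p = 0.0335), a call lost on leaving out any of 5 libraries, with quantile normalization and with only the groups compared. Both lie near the filter on low values. Whether reads were shared between these copies and their parent genes was not tested.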
